A study of Mus musculus with 2 samples.

Results

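The Mir322, Mir503 and Mir351 cluster is a run of 7 miRNA genes (Mir322, Mir503, Mir351, Mir542, Mir450-2, Mir450-1 and Mir450b) on the mouse X chromosome. The members were taken by gene symbol in GENCODE M21, and all 7 were found among the 2202 miRNA genes of the deposited tables. They were measured in adrenal gland tissue of male B6CASTF1/J mice aged 2 months, with no treatment named, in 1 group of 2 libraries: animal 3 (replicate 1) and animal 4 (replicate 2). B6CASTF1/J mice are first-generation hybrids of C57BL/6J and the wild-derived strain CAST/EiJ, and no transgene or other allele is named. By the naming convention for hybrids the mother is C57BL/6J, the strain of the reference genome, so the X chromosome of these males comes from that strain. The labels give the animals as separate biological replicates under 1 donor identifier. There is no second tissue, age or treatment, so levels are described and only the libraries themselves are compared. Replicate 1 had 5752428 reads at miRNA genes and replicate 2 had 3333149. Levels are given as CPM, the count scaled to a library of 1000000 such reads.

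MicroRNAs are small RNAs cut from hairpins, and the bases 2 to 8 of the mature strand, the seed, pair with target mRNAs. Several hairpins can be cut from 1 long primary transcript, and the genes of this cluster are known as such a polycistron. Mir322 is the mouse counterpart of human MIR424. With Mir503 it is known for slowing the cell cycle, by targeting cyclins and the phosphatase Cdc25a, and for rising in differentiating muscle cells. The product of Mir351 carries the seed of miR-125, the vertebrate relative of lin-4 of the worm. Human miR-542-3p is known to target the survival gene survivin (BIRC5).

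The mature sequences show which members can pair with the same targets. Each is given 5' to 3' with its seed in capitals, from RefSeq (GRCm38.p6). The first 4 share the seed of the miR-15/16 family or differ from it by the last base, and the next 3 carry the seed of miR-125. miR-15a-5p, miR-16-5p, miR-125a-5p and miR-125b-5p are made outside the cluster.
miR-322-5p: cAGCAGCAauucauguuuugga
miR-503-5p: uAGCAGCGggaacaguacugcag
miR-15a-5p: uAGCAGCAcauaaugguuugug
miR-16-5p: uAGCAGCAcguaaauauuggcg
miR-351-5p: uCCCUGAGgagcccuuugagccug
miR-125a-5p: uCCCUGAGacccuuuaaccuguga
miR-125b-5p: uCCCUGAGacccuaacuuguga
miR-542-3p: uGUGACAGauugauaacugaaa
miR-450a-5p: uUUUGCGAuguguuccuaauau
miR-450b-5p: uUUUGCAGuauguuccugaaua

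miR-322-5p and miR-503-5p shared bases 2 to 7, and miR-503-5p was the only mature form of the RefSeq table with its seed. The seed of miR-322-5p stood in 10 mature forms of that table and the seed of miR-351-5p in 5. Behind the seed the relatives diverged: miR-322-5p and miR-15a-5p had the same base at 8 of 14 later positions, and miR-351-5p and miR-125a-5p at 2 of 16. The seeds of miR-542-3p, miR-450a-5p and miR-450b-5p belonged to no other mature form of the table. Each count in the files is for a whole gene, so the 5p and 3p arms of a hairpin cannot be told apart here.

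The cluster lies on the minus strand of chromosome X between 53047997 and 53054349 (mm10), a span of 6353 bases. In the direction of transcription it starts with Mir322 (53054255 to 53054349), Mir503 (53053984 to 53054054) and Mir351 (53053255 to 53053353). After a gap of 3767 bases follow Mir542 (53049403 to 53049487), Mir450-2 (53048299 to 53048367), Mir450-1 (53048154 to 53048244) and Mir450b (53047997 to 53048078). Their Ensembl identifiers, in that order, are ENSMUSG00000065418.1, ENSMUSG00000076122.1, ENSMUSG00000065503.1, ENSMUSG00000076140.1, ENSMUSG00000076399.1, ENSMUSG00000065486.1 and ENSMUSG00000076050.1. No member overlaps another GENCODE M21 gene on either strand. The gap between Mir351 and Mir542 holds the long non-coding RNA gene Gm28730 (53051194 to 53053159), on the same strand. The long non-coding RNA gene C430049B03Rik lies 696 bases upstream of Mir322 in GENCODE. In RefSeq the same gene runs from 53053112 to 53057190 and holds Mir322, Mir503 and Mir351. The protein-coding neighbours are Hprt on the other strand beyond Mir450b, and Plac1 upstream. Hprt encodes a purine salvage enzyme, and Plac1 is best known from placenta. No other miRNA gene is annotated within 100000 bases.

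All 7 members were detected, with detection taken as 2 CPM or more in both libraries. Across all miRNA genes 16.9% were detected (372 of 2202). Together the members held 1.29% of the miRNA reads of replicate 1, with a 95% interval (exact, Clopper-Pearson) of 1.28 to 1.30, and 1.66% of those of replicate 2, with an interval of 1.65 to 1.68. Their mean share was 1.48% ± 0.262 (SD, n = 2). The X chromosome as a whole, with 142 miRNA genes of which 35 were detected, held 4.58% and 4.88% in replicates 1 and 2. The cluster thus made up 28.3% of the X-linked miRNA reads in replicate 1 and 34.1% in replicate 2. Whole-tissue RNA cannot tell fewer cells of a type from less RNA per cell. All intervals are for the counting error of reads only and leave out the spread between animals. PCR copies of a molecule are counted as separate reads, so the intervals can be too narrow for molecules.

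Mir322 carried most of the cluster. It had 63178 reads (10983 CPM) in replicate 1 and 47618 reads (14286 CPM) in replicate 2. It ranked 20 and 16 among all miRNA genes, and took 84.9% and 85.9% of the cluster's reads. Both libraries gave it the first place in the cluster by a wide margin. Its hairpin is shown because it supplied these reads; the capitals mark miR-322-5p and, behind the loop, miR-322-3p.
Mir322: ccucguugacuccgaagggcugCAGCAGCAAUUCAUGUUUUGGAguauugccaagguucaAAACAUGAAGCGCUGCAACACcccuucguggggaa

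On the X chromosome Mir322 ranked next to Mir652, and their order turned between the animals. Mir652 exceeded Mir322 1.27-fold in replicate 1 and stood at 0.897 of it in replicate 2. Mir98, the next X-linked gene, was lower than Mir322 in both animals, by 1.96-fold and 2.49-fold. By the distance of log2(CPM + 1) over the 2 libraries, the genes nearest to Mir322 were Mir99a (10693 and 14136 CPM), Mir652 (13980 and 12817 CPM) and Mir10b (14898 and 13296 CPM). Mir99a followed it most closely, at a distance of 0.041, and in replicate 2 the pair was level within counting error.

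Mir351 was the second member. It had 1523 CPM (8763 reads) in replicate 1 and 1770 CPM (5901 reads) in replicate 2, a mean of 1647 ± 175 CPM (SD, n = 2). Mir322 exceeded it 7.21-fold in replicate 1 (interval 7.05 to 7.37) and 8.07-fold in replicate 2 (7.85 to 8.29). It took 11.8% of the cluster's reads in replicate 1 and 10.6% in replicate 2.

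Mir503 lies 200 bases from Mir322 and before Mir351 on the strand, yet it was counted far below both. It had 154 CPM (884 reads) in replicate 1 and 191 CPM (636 reads) in replicate 2. Mir322 exceeded it 71.5-fold and 74.9-fold, and Mir351 exceeded it 9.91-fold and 9.28-fold. The levels therefore did not follow the order of the hairpins along the transcript. The spread of the log2 ratio of Mir322 to Mir503 between the animals was small (6.19 ± 0.05, SD, n = 2).

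Mir542, the first hairpin behind the gap, had 198 CPM (1140 reads) in replicate 1 and 304 CPM (1012 reads) in replicate 2. It exceeded Mir503 1.29-fold (1.18 to 1.41) in replicate 1 and 1.59-fold (1.44 to 1.76) in replicate 2. This was the smallest step between neighbours in the order of levels, and it had the same direction in both animals, at 0.52 ± 0.21 on the log2 scale. The nearest gene to Mir542 over the 2 libraries was Mir188 (199 and 302 CPM), which is also X-linked. For Mir503 it was Mir30b (157 and 191 CPM) and for Mir351 it was Mir324 (1569 and 1759 CPM).

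The miR-450 genes at the 3' end were the lowest. Mir450b had 53.0 CPM (305 reads) in replicate 1 and 58.5 CPM (195 reads) in replicate 2. Mir450-2 had 18.3 CPM (105 reads) and 18.6 CPM (62 reads) in the same order. Mir450-1 had 4.87 CPM (28 reads) and 6.30 CPM (21 reads). Their order was the same in both animals. Mir450b exceeded Mir450-2 by 1.59 ± 0.08 on the log2 scale and Mir450-2 exceeded Mir450-1 by 1.71 ± 0.25 (SD, n = 2). Close in level over the 2 libraries were Mir24-1 for Mir450b, Mir219a-1 for Mir450-2 and Mir592 for Mir450-1, at distances of 0.075, 0.144 and 0.042.

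The levels of Mir450-1 and Mir450-2 are uncertain because both encode miR-450a-5p. The hairpins are shown with the longest run they share in capitals. It is 25 bases long and contains the whole of miR-450a-5p.
Mir450-1: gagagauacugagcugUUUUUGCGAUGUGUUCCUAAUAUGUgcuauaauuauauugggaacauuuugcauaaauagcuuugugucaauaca
Mir450-2: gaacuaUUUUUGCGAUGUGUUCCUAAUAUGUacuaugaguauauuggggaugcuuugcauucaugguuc

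The tables tally reads that aligned to several places in a row of their own, taken here to mean that they were not counted at genes, though no source used here states the rule. In the whole libraries 39.4% (replicate 1) and 41.2% (replicate 2) of what aligned was of this kind. A read that lies wholly in the shared run fits both genes, so under that rule neither count would cover all of its reads. Mir450b has a product of its own on each arm, and its longest run in common with another miRNA gene was 19 bases, with Mir450-1. The mature forms miR-450a-1-3p and miR-450b-3p had the same base at 20 of 22 positions. For Mir322, Mir503, Mir351 and Mir542 the longest run in common with any other annotated hairpin was 11 to 13 bases, shorter than their mature forms.

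**Figure D1:**
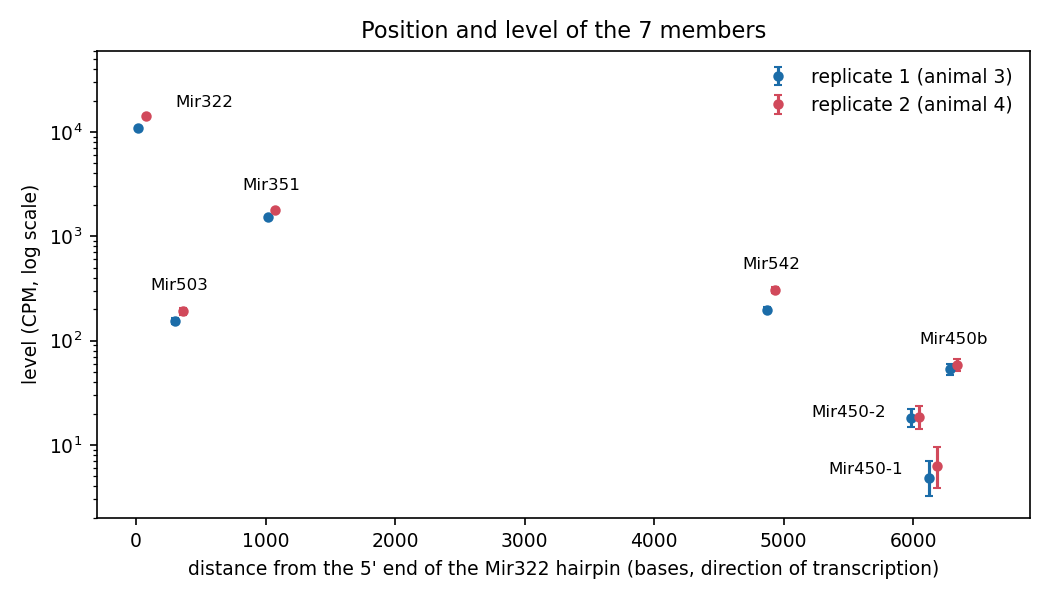
Level of each member in CPM (log scale) against the distance of its hairpin from the 5' end of Mir322 in bases, in the direction of transcription. Points are the 2 libraries, drawn side by side, and bars are 95% Clopper-Pearson intervals. Mir322 stands at 10983 and 14286 CPM, Mir503 beside it at 154 and 191 CPM, and the miR-450 genes at the far end below 60 CPM.

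The plot of level against position shows that most reads came from the first 3 hairpins, though not from each of them. Mir322, Mir503 and Mir351 held 97.9% of the cluster's reads in replicate 1 and 97.7% in replicate 2. The 4 hairpins behind the gap held 2.12% and 2.33%. Mir322 alone held 84.9% and 85.9%. Mir503 held 1.19% and 1.15%, less than the 1.53% and 1.83% of Mir542 behind the gap. In base composition, the 3 miR-450 hairpins had a GC content of 30.5% to 36.2%. The 4 other hairpins, Mir542 behind the gap included, had 50.5% to 54.9%. The predicted folding energy ranged from -42.9 kcal/mol for Mir322 to -26.5 kcal/mol for Mir450-2, the shortest hairpin with 69 bases. It was -41.0 kcal/mol for Mir450-1, the member with the fewest reads. Per base the order was another, from -0.530 kcal/mol for Mir503 to -0.377 kcal/mol for Mir351. Mir322 had -0.452 and Mir450-1 had -0.451 kcal/mol per base. The part of base composition and folding energy in the levels was not tested.

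From Mir322 to Mir450-1 the cluster spanned 11.11 on the log2 scale in both libraries. The libraries differed by far less than the counting error of this ratio, which rests on the 28 and 21 reads of Mir450-1 and was 0.27 and 0.31 (SE). Without the copied genes Mir450-1 and Mir450-2, the span from Mir322 to Mir450b was 7.81 (7.69 in replicate 1 and 7.93 in replicate 2). Among the miRNA genes of the tables, 18 runs of 3 or more genes on 1 strand, with at most 10000 bases between neighbours, had reads in both libraries. In 9 of them, this cluster included, every gene was detected. This cluster had the widest span of the 9, and with 7 genes it was also the largest of them. The others had 3 genes each, or 5 in the one led by Mir532, and a span can widen with the number of genes. The planned comparison was over all 18 runs, where this cluster ranked 4. The limit to fully detected runs was not in that plan. From Mir322 to Mir450-2 the span was 9.40 ± 0.25 (SD, n = 2), close to that from Mir23b to Mir24-1 (9.31). The 7.81 to Mir450b is below that 9.31. Mir24-1 is a copied gene too and was not left out, so the 7.81 and the 9.31 are not for like sets of genes.

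Next to the full span came Mir23b to Mir24-1 (9.31 ± 0.05) and Mir23a to Mir24-2 (7.76 ± 0.81), whose lowest genes also share their product with another locus. The narrowest were Mir93 to Mir25 (3.37 ± 0.03), Mirlet7e to Mir99b (1.11 ± 0.10) and Mir429 to Mir200a (1.02 ± 0.41). In the other 9 runs the lowest gene was not detected in both libraries. The 3 with the widest computed span were led by Mir127, Mir379 and Mir341, all on chromosome 12, and the one next below this cluster was led by Mir467d on chromosome 2. In these 4 the lowest gene had no read in either library, so no ratio to it is given. Over detected genes alone, an alternative chosen after seeing the data, the cluster led by Mir127 spanned 11.81 down to Mir3070a, more than the 11.11 here. Another cluster of the X chromosome, led by Mir532 with 5 detected genes, spanned 3.86 ± 0.14.

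**Figure D2:**
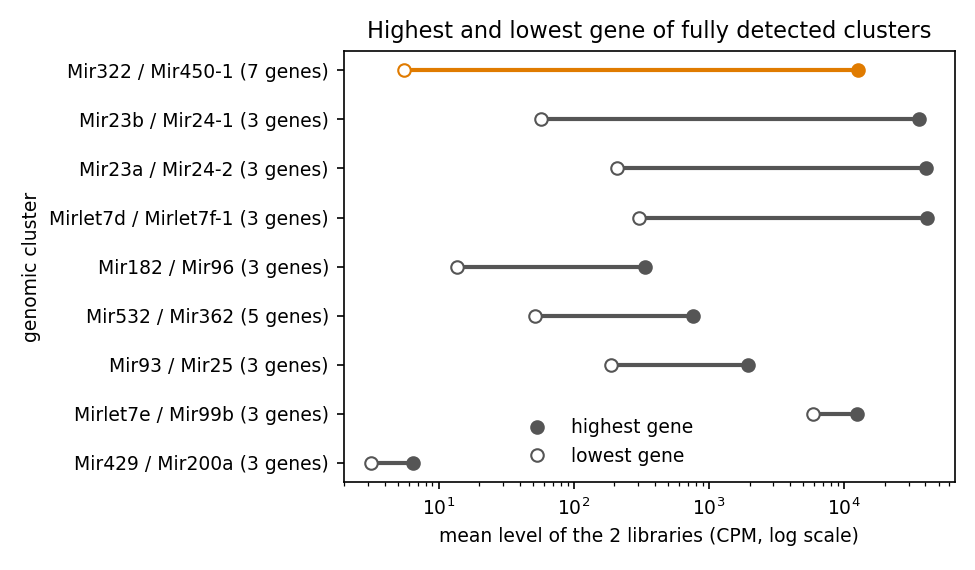
Mean level of the 2 libraries in CPM (log scale) of the highest gene (filled) and the lowest gene (open) in the 9 genomic clusters with every gene detected, in order of their span. The Mir322 cluster, in orange, covers 12635 to 5.58 CPM.

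Mir322 was the leading gene of its seed, by gene counts that do not separate the arms of a hairpin. Of 11 genes with this seed in the RefSeq table, 7 were detected. Mir322 had 69.8% of their summed reads in replicate 1 (interval 69.5 to 70.1) and 70.0% in replicate 2 (69.7 to 70.4). The sum over the 6 other detected genes was 4757 CPM for replicate 1 and 6121 CPM for replicate 2. Mir15a, a miRNA gene lost in a common human leukaemia, came next with 1256 and 2890 CPM. Mir322 exceeded it 8.74-fold and 4.94-fold.

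Mir16-1, the partner of Mir15a, had 1232 and 641 CPM, and Mir16-2 had 240 and 202 CPM. Both make miR-16-5p, and how reads that fit both loci were counted is not stated, so the level of miR-16-5p, and with it the share of Mir322, is uncertain. Mir15b, the partner of Mir16-2, had 915 and 550 CPM. Mir195a had 684 and 898 CPM and its neighbour Mir497 had 430 and 940 CPM. Mir195b, Mir6342, Mir6353 and Mir6419 had no read in either library, and a count of 0 allows a level of up to 0.522 CPM (3 reads) in replicate 1 and 0.900 in replicate 2. Single relatives moved in opposite directions between the animals, with a log2 ratio of replicate 1 over replicate 2 (TMM scaling) of -0.93 for Mir497 and 1.14 for Mir16-1, while the intervals of the share of Mir322 overlapped.

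Mir351 had a minor part of the reads counted at the genes with its seed, again with the arms not separated. It took 25.4% (25.0 to 25.9) in replicate 1 and 16.02% (15.7 to 16.4) in replicate 2. Mir125a led with 4119 and 8839 CPM, and exceeded Mir351 2.70-fold and 4.99-fold. The order was the same in both animals, and the size of the step was not. Mir125b-1 had 240 and 264 CPM and Mir125b-2 had 107 and 174 CPM. Both make miR-125b-5p, so their counts are uncertain in the same way.

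**Figure D3:**
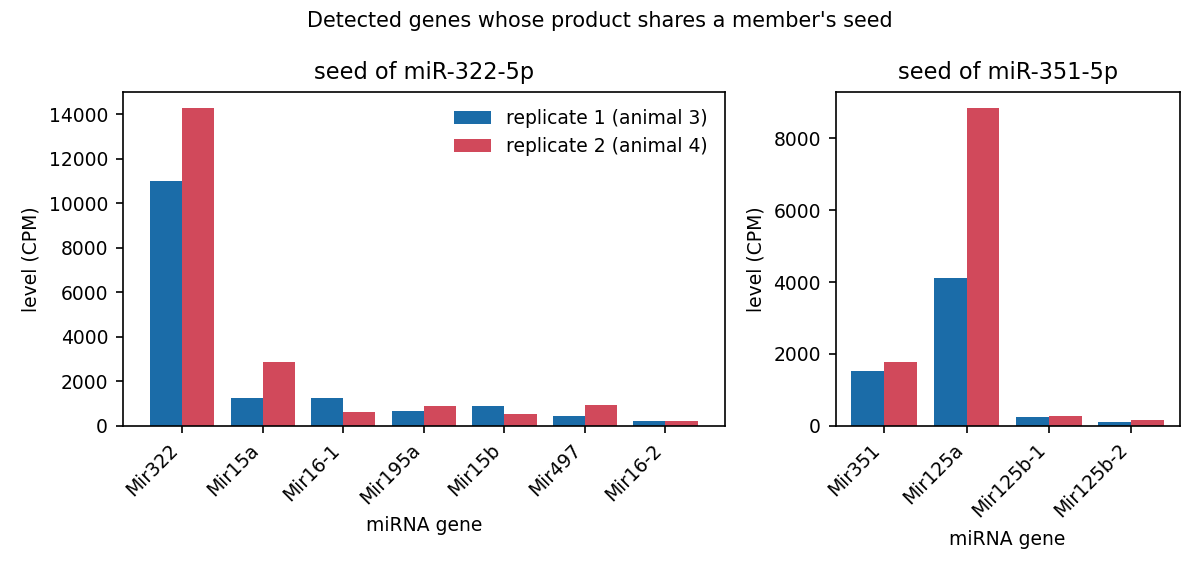
Level in CPM of the detected genes whose mature product shares the seed of miR-322-5p (left) or miR-351-5p (right), with 1 bar per library and the cluster's member first. Mir322 stands above each relative in both libraries, whereas Mir351 stands below Mir125a.

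All 7 members had a higher CPM in replicate 2, from 1.02-fold for Mir450-2 to 1.53-fold for Mir542. This held for the larger part of the table: by total counts 65.3% of the 389 genes with 10 or more reads in mean had a log2 ratio of replicate 1 over replicate 2 below 0. TMM scaling, which assumes that most genes are level, raised all log2 ratios by 0.20. After it, 5 of the 7 members were below 0, beside 48.8% of all genes tested. Values below are after TMM scaling.

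Of the 7 members 0 were past 2-fold, which for so few genes is near the 14.4% of all genes tested. Their median log2 ratio was -0.11, beside 0.01 for all genes. Mir322 had a log2 ratio of -0.18 (interval -0.20 to -0.16) and Mir542 of -0.42 (-0.54 to -0.29). These 2 members differed beyond counting error by the two-sided exact binomial test on the reads of the libraries (Benjamini-Hochberg adjusted p = 2.37e-93 and 8.99e-11). Of all genes tested, 59.6% did so, 30.8% higher in replicate 1 and 28.8% lower. The test sets 1 library against 1 and compares these libraries, not conditions. edgeR's exact test took its dispersion from the same 2 libraries, so it sets their difference against itself and cannot weigh these calls. It called 4 genes and 0 members, and 16 genes but 0 members had an unadjusted p under 0.05.

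The other 5 members were within counting error of no difference. The log2 ratio was -0.02 for Mir351 (-0.07 to 0.03), -0.11 for Mir503 (-0.26 to 0.04), 0.06 for Mir450b (-0.21 to 0.32), 0.17 for Mir450-2 (-0.30 to 0.65) and -0.18 for Mir450-1 (-1.04 to 0.72). Adjusted p of the exact binomial test lay between 0.201 for Mir503 and 0.766 for Mir450b. For Mir450-1 the interval reaches past 2-fold lower in replicate 1, so a difference of that size lies within its counting error. By total counts Mir503 (log2 ratio -0.31) and Mir351 (-0.22) were called lower in replicate 1 too, and Mir450b (-0.14) and Mir450-2 (-0.032) turned negative.

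**Figure D4:**
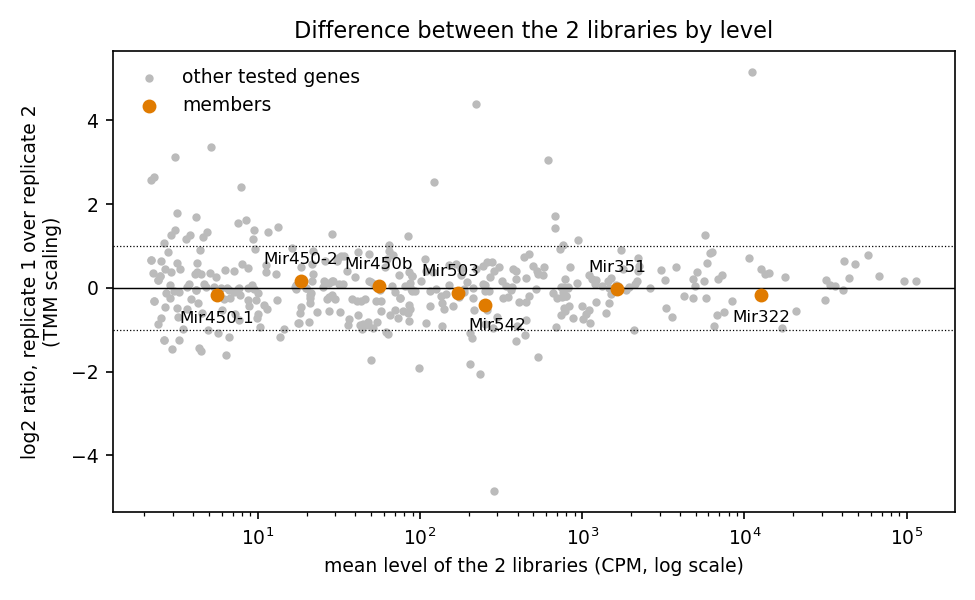
Log2 ratio of replicate 1 over replicate 2 after TMM scaling against the mean level in CPM (log scale) for 389 miRNA genes. Members are in orange, dotted lines mark 2-fold, and all 7 members lie between -0.42 and 0.17.

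Markers of the gland were present in both libraries. The 4 neuroendocrine genes (72802 and 51447 CPM in sum, led by Mir375) and the 3 genes of steroid-producing tissue (1461 and 1550 CPM) were all detected. Of the latter sum Mir132 alone had 1416 and 1449 CPM, with Mir212 at 36.7 and 87.6 CPM and Mir202 at 8.69 and 13.2 CPM. Among other cell types, endothelial genes had 1 of 2 detected (69154 and 65135 CPM), smooth muscle and mesenchymal genes 5 of 7 (33519 and 34842 CPM) and white blood cell genes 5 of 6 (2956 and 3251 CPM). Striated muscle genes had 3 of 9 detected (719 and 454 CPM), and the liver gene Mir122 had 690 and 1331 CPM. Mir1a-1, Mir133a-2 and the white blood cell gene Mir142b had no read in either library. Mir1a-1 and Mir133a-2 each have another copy in the list (Mir1a-2 and Mir133a-1). How reads that fit several loci were counted is not stated, so these counts and the striated muscle sum are uncertain. Erythroid genes, with all 3 of the table detected, had 22813 CPM for replicate 1 and 901 CPM for replicate 2. Single genes of other lists also differed, in both directions. After TMM scaling the log2 ratio was 4.38 for Mir499, 3.37 for Mir208a, 2.51 for Mir208b and -2.05 for Mir206, all of striated muscle. It was -1.92 for Mir223 of white blood cells. Mir208a had 54 and 3 reads and did not pass the detection rule, and the interval of its ratio ran from 1.96 to 5.90. Leaving 5 genes with large differences (Mir451a, Mir144, Mir499, Mir208b and Gm26117) out of the TMM scaling gave -0.21 for Mir322 and -0.45 for Mir542. The part of these cell types in the members' levels was not tested.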

How the data were processed

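Small RNA of under 30 nt from adrenal gland tissue was sequenced, 1 library for each animal. The values deposited by the authors are read counts at GENCODE M21 miRNA genes on mm10, as the text beside each library says. For the aligner and trimming, nothing was given in the sources used here. Counts on the strand of the gene were taken. The 4 leading rows name no gene (66.2% of reads in replicate 1, 69.0% in replicate 2) and stayed out of all totals.

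CPM are counts over the total at miRNA genes. The exact binomial test used library sizes after TMM scaling to set the share expected, on the 389 genes whose 2 libraries averaged at least 10 counts, with adjustment over all of them and a threshold of 0.05. Log2 ratios had 0.5 counts added. A quasi-likelihood test needs spread within groups and was not possible. Hairpins were compared and folded with ViennaRNA 2.7.2. Alternatives covered strand, denominators, scaling (DESeq2), filters, added counts, detection limits, edgeR's exact test and 1 library at a time. Named were all members, their seed relatives at 2 CPM, the nearest genes (3 for Mir322, 1 for each other member) and the clusters with the widest, narrowest and adjacent spans. Mir98, the clusters of Mir23a, Mir23b and Mir532, and seed relatives and markers with no read or a high one were named after their values were seen. Members and lists were chosen with earlier results of these data known. Python 3.11.15, SciPy 1.17.1, pandas 2.3.3, NumPy 2.4.6, matplotlib 3.10.9, R 4.3.3, edgeR 4.0.16 and DESeq2 1.42.0 were used.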

Additional observations from a re-analysis of the deposited data

How the results depend on the processing

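Of 171 values under an alternative, 133 stayed in place and 2 turned direction. A level, the share or a ratio between members stayed in place if it moved by less than the SD of the 2 libraries. Each single library lies within that SD of their mean by arithmetic, so these values could not move. The 133 is therefore no measure of stability. Levels moved with the denominator. Mir322 averaged 14979 CPM and the cluster held 1.75% with counts taken without regard to strand. They reached 4073 CPM and 0.477% of all reads in the files, and 29885 CPM and 3.50% without the 10 highest genes. With single libraries the cluster's share ran from 1.29% to 1.66% and Mir322 from 10983 to 14286 CPM. At 100 CPM, 4 members were detected. The span from Mir322 to Mir450-1 was 11.08 with 1 count added and 11.14 with 0.1, and 7.81 without Mir450-1 and Mir450-2.

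Between the libraries, total counts called 4 members, with Mir503 at -0.31 and Mir351 at -0.22 on the log2 scale, and turned Mir450-2 to -0.032 and Mir450b to -0.14. edgeR's exact test with the common dispersion called 0 members (0 at an unadjusted p under 0.05), at -0.18 for Mir322 and -0.42 for Mir542. It called 4 genes, beside 232 by the exact binomial test. Its dispersion comes from the same 2 libraries, so it cannot weigh the binomial calls. DESeq2 size factors and filters changed no call of a member tested, with Mir450-1 and Mir450-2 not tested at 100 or more counts in mean. Added counts entered the log2 ratios only and not the test, so they could not change a call. The rank of the span, 4 of 18 clusters, became 2 of 17 over detected genes alone, an alternative chosen after seeing the data. Mir450-1, with 28 and 21 reads, is limited by depth. No paired analysis was possible because there is 1 group.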
